A study of Drosophila melanogaster with 17 samples.

Results

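Nuclear hormone receptors are transcription factors whose activity can be set by small lipophilic molecules, and the genes described here are 10 such receptors of Drosophila: EcR, usp, Eip75B, Eip78C, Hr3, Hr38, Hr39, Hr78, ftz-f1 and ERR. They were taken from the table by the FlyBase identifier that carries each symbol, and all 10 were found among its 17490 features. EcR and Usp together form the receptor for the steroid 20-hydroxyecdysone, and several of the other receptors are themselves products of genes that ecdysone turns on. In the larva and pupa they act as a relay that times moulting and metamorphosis, and in the adult fly gut ecdysone signalling is known to act on intestinal stem cells and their progeny.

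The data were RNA-seq profiles of 17 libraries from adult midgut at day 3, each made from about 10000 GFP-labelled cells that were sorted by flow cytometry and whose RNA was amplified before sequencing. A set of 11 libraries was wild type, with 5 of intestinal progenitor cells (titled ESG), 3 of enteroendocrine cells (EEs, the hormone-secreting cells of the gut) and 3 titled EC. The other 6 were progenitor cells whose genotype label is Sox100B-RNAi (titled IR, 3 libraries) or Sox100B overexpression (titled OE1, 3 libraries, called Sox100B-OE below), Sox100B being a SoxE transcription factor. The labels name neither the drivers nor the transgene lines, do not explain the 1 in OE1, and do not say whether replicates came from separate flies, so p-values measure the spread between these libraries, which may be technical. For the EC libraries the cell type label says enterocytes but the source name says enteroblast. Against progenitors, 3 of 8 enterocyte markers (Amy-p, Amy-d and alphaTry) were higher in them and 1 (Myo31DF) was lower, and the summed level of 5 progenitor markers was 76.9 to 162 RPKM in the EC libraries and 64.9 to 116 RPKM in progenitors. They are therefore called the libraries labelled EC. In sorted bulk samples, fewer cells of a type and less RNA per cell cannot be told apart.

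Values are RPKM, reads per kilobase of gene scaled to library size. Levels of different genes can be set side by side only roughly, since some share exonic bases with other features and the RNA was amplified. Implied read totals were 24.11 to 59.46 M in the wild type libraries and 17.37 to 29.4 M in the Sox100B libraries (M, 1e6 reads). The sets also differed in how they had been tallied: mitochondrial features held 17.07 to 31.83% of assigned reads in the 6 Sox100B libraries and were listed at 0 in the 11 wild type ones. For 6 of the receptors, another feature of the table shares exonic bases, 9 such features in all. Of these, CG12912 and asRNA:CR45869 were listed at 0 in all 11 wild type libraries and had reads in every Sox100B library. In comparisons of Sox100B libraries with progenitors, the genotype and the processing cannot be told apart, whereas Sox100B-OE against Sox100B-RNAi lies within 1 set. Sox100B itself had 77.3, 69.7, 98.0, 174 and 183 RPKM in the progenitor libraries, 32.1, 34.4 and 20.3 RPKM in Sox100B-RNAi and 105, 85.5 and 144 RPKM in Sox100B-OE. It was lower in Sox100B-RNAi than in progenitors by limma, and in Sox100B-OE it was higher than in Sox100B-RNAi but overlapped the progenitors, at a log2 fold change of -0.03, which was not called.

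A gene was tested where at least 3 libraries of the comparison had an RPKM of at least 1, and it was called where the adjusted p of limma was below 0.01 and the difference of log2(RPKM + 1) above 0.5 in size. That scale understates the change of low genes. In EEs against progenitors none of the 8 receptors tested was called in either direction by limma. Of all features 20.1% were called higher and 14.5% lower. An unadjusted limma p below 0.05 was reached by 2 of the 8 receptors and by 4657 of all 8161 features tested. In the libraries labelled EC against progenitors, 1 of 8 was higher (Eip75B) and 1 lower (Hr78), where 3.56% of all features were called higher and 16.5% lower. Between EEs and the libraries labelled EC the same genes stood out, with Eip75B lower and Hr78 higher in EEs, each 1 of 8, where 26.5% of features were higher and 6.22% lower in EEs.

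In Sox100B-RNAi against progenitors, 0 of 8 receptors were called by limma, where 23.0% of features were called higher and 2.26% lower. An unadjusted limma p below 0.05 was reached by 2 of the 8 receptors and by 3653 of all 8675 features tested. In Sox100B-OE against progenitors all 10 were tested and 5 were higher (Hr3, Hr38, ERR, ftz-f1 and Eip75B), where 28.9% of features were higher, and 0 were lower, where 4.83% of features were. In Sox100B-OE against Sox100B-RNAi, 2 of 9 were higher (Hr38 and Hr3), where 10.5% of features were higher, and 0 were lower, where 5.56% were. Hr3 and Hr38 were tested in these last comparisons only because they were high in Sox100B-OE, so their part in the counts follows from the filter. The median log2 fold change of the receptors tested was -0.22 in EEs against progenitors, 0.21 in the libraries labelled EC against progenitors and -0.01 between EEs and those libraries, beside medians over all features of -0.05, -0.46 and 0.45. It was 0.10 in Sox100B-RNAi against progenitors, 0.70 in Sox100B-OE against progenitors and 0.44 in Sox100B-OE against Sox100B-RNAi, beside 0.20, 0.26 and -0.04 over all features.

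**Figure D1:**
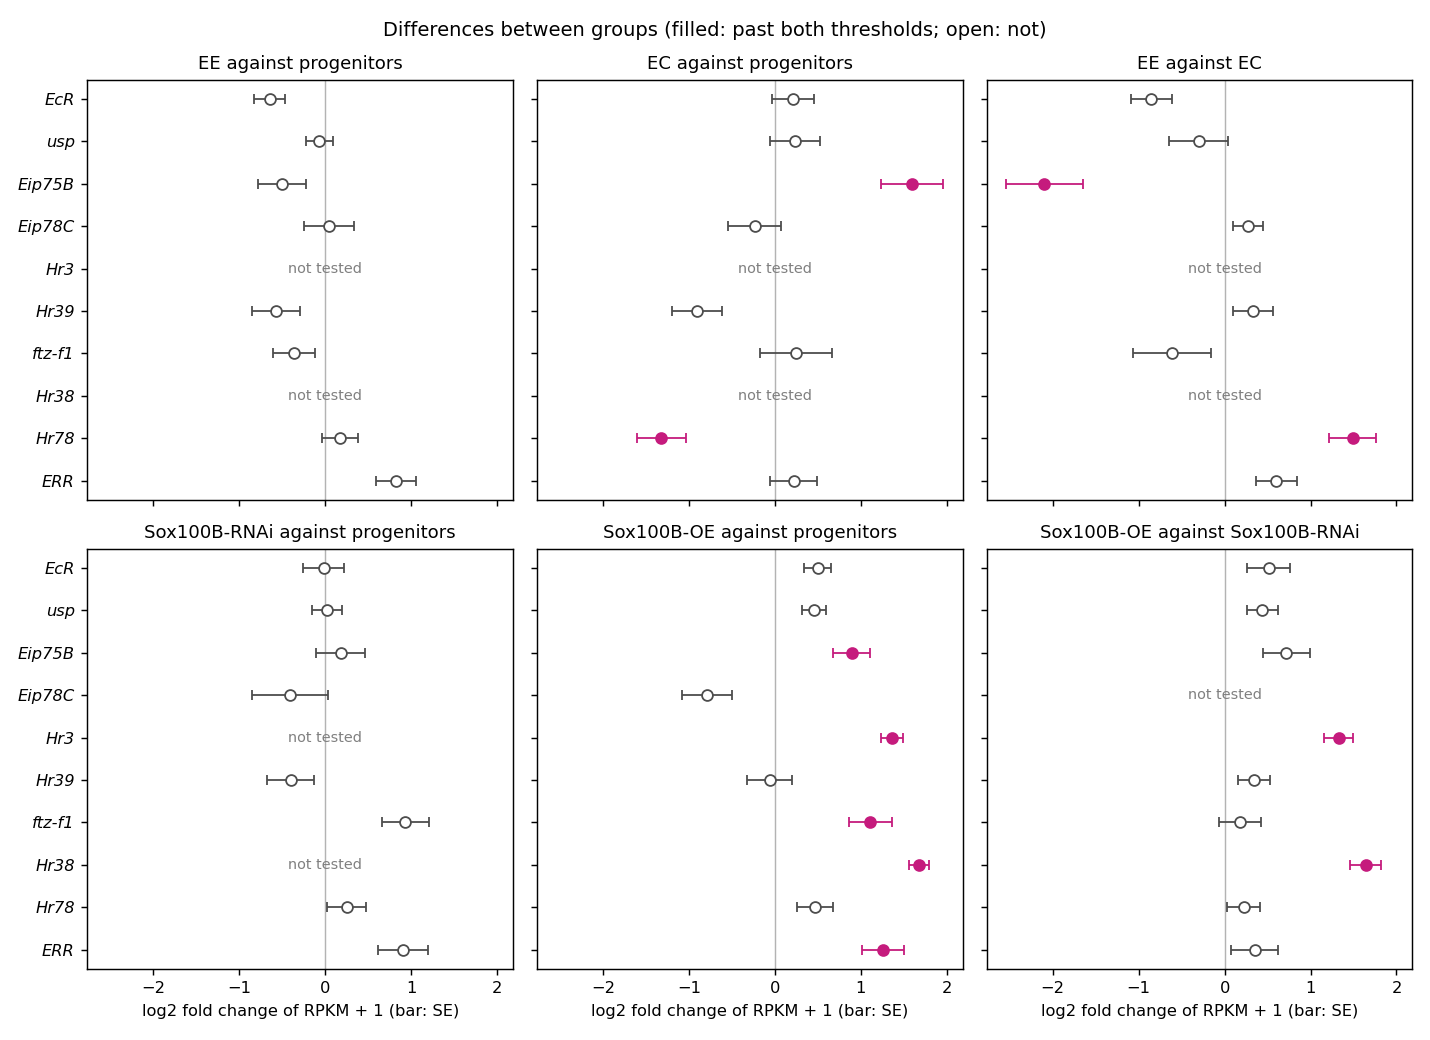
Log2 fold change of RPKM + 1 (x axis, bars are the limma SE) of each receptor gene (y axis) in the 6 comparisons, 1 panel each; filled points passed both thresholds and open points did not. Filled points lie to both sides of 0 in the comparisons that include the libraries labelled EC, and on the higher side alone in the panels with Sox100B-OE, where Hr38 lies at 1.68 and 1.64 and Hr3 at 1.36 and 1.33.

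The splits of all features depended on scaling. In EEs against progenitors 1640 features were higher and 1183 lower as deposited, but 1463 and 1801 after quantile normalization, 1453 and 1749 after scaling to nuclear reads, and 920 and 1316 among nuclear genes sharing no exonic base. In the libraries labelled EC against progenitors, 276 were higher and 1280 lower as deposited, but 517 and 423 with median-of-ratios factors and 385 and 431 after quantile normalization. Between EEs and these libraries, 2080 were higher and 488 lower in EEs before rescaling, 1417 and 873 with median-of-ratios factors, 1224 and 1143 after quantile normalization, and 1021 and 454 among genes sharing no exonic base. In each of these comparisons, the receptor values below moved with the scaling in size but no called receptor changed direction.

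In Sox100B-RNAi against progenitors, 1995 features were higher and 196 lower as deposited, 1353 and 1631 after quantile normalization, and 134 and 42 among genes sharing no exonic base. In Sox100B-OE against progenitors, the deposited values gave 2578 higher and 431 lower, median-of-ratios scaling 2127 and 937, quantile normalization 1680 and 2579, scaling to nuclear reads 2224 and 802, and genes sharing no exonic base 443 and 233. Median-of-ratios scaling moved the median of all features from 0.26 to 0.01 in the latter comparison and from -0.46 to -0.05 in the libraries labelled EC against progenitors, so fold changes there are best read relative to those medians.

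**Figure D2:**
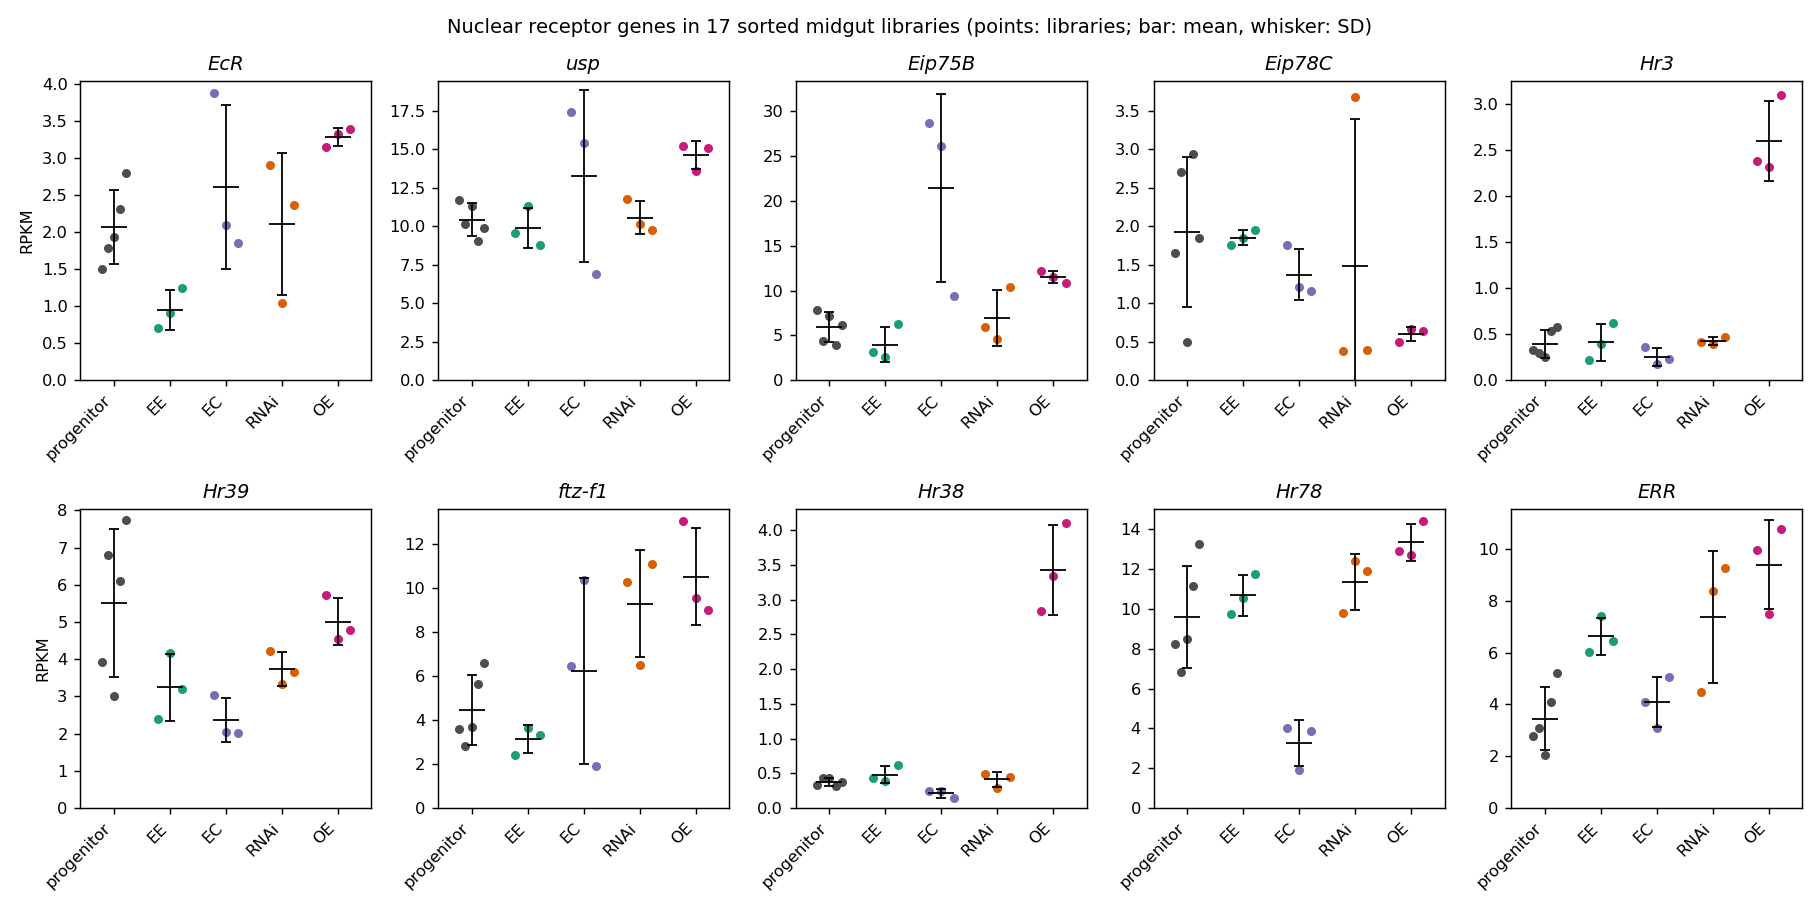
RPKM (y axis, from 0, its own scale in each panel) of the 10 receptor genes in the 17 libraries; points are libraries, the bar is the mean and the whisker the SD of each group (5 progenitor libraries, 3 in each other group; the Sox100B-RNAi whisker of Eip78C runs below 0 and is cut off there). Hr3 and Hr38 exceed 1 RPKM in the 3 Sox100B-OE libraries alone, and Hr78 in the libraries labelled EC lies below every other library.

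EcR, the subunit of the ecdysone receptor that binds the hormone (2R, 6087873 to 6169087, minus strand, genome build BDGP6), was a low transcript throughout. It had 1.51, 1.79, 1.93, 2.31 and 2.79 RPKM in progenitors and 0.70, 0.91 and 1.24 RPKM in EEs. Every EE library was below every progenitor library, with means of 0.951 ± 0.271 RPKM (SD, n = 3) and 2.07 ± 0.50 RPKM (SD, n = 5). The log2 fold change of RPKM + 1 was -0.65 ± 0.18 (SE), which missed the threshold (limma, adjusted p = 0.0139). It passed after quantile normalization, after scaling to nuclear reads, among genes sharing no exonic base, with array weights and against progenitor replicates 4 and 5 alone, at log2 fold changes down to -1.10. The libraries labelled EC had 3.88, 2.10 and 1.85 RPKM, again all above the EEs, and EEs against them gave -0.85 ± 0.24 (SE; limma, adjusted p = 0.0175).

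In the Sox100B libraries EcR was at 3.15, 3.31 and 3.39 RPKM in Sox100B-OE and at 2.90, 1.05 and 2.36 RPKM in Sox100B-RNAi. The Sox100B-OE libraries were close to each other and above all Sox100B-RNAi and progenitor libraries, whereas replicate 2 of Sox100B-RNAi was less than the rest of its group. The log2 fold change was 0.52 ± 0.25 (SE) against Sox100B-RNAi and 0.50 ± 0.15 (SE) against progenitors, and neither was called (limma, adjusted p = 0.157 and 0.0264).

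usp encodes the RXR-type partner of EcR (X, 2038798 to 2042311, minus strand). It had the smallest ratio of highest to lowest level of the 10, 2.52, and was between 6.91 and 17.4 RPKM over the 17 libraries and above 1 RPKM in all of them. Group means were 10.4 ± 1.07 RPKM (SD, n = 5) in progenitors, 9.89 ± 1.31 in EEs, 10.6 ± 1.06 in Sox100B-RNAi and 14.6 ± 0.92 in Sox100B-OE (SD, n = 3 each). It was called in none of the 6 comparisons. The libraries labelled EC had 17.4, 15.4 and 6.91 RPKM, so that this group held both the highest and the lowest usp level of the series. The lowest was replicate 3, the most deeply sequenced library, which was also the lowest of its group for Eip75B and ftz-f1. The Sox100B-OE libraries, at 15.2, 13.6 and 15.1 RPKM, did not overlap the progenitors or Sox100B-RNAi, with log2 fold changes of 0.46 ± 0.14 and 0.44 ± 0.18 (SE; limma, adjusted p = 0.0247 and 0.106). Of the exonic length of usp, 8.72% is shared with Actn on the same strand, and CG4313 overlaps on the opposite strand. Actn was at 26.8 to 34.8 RPKM in Sox100B-OE, 17.7 to 21.1 in Sox100B-RNAi and at most 6.89 in wild type libraries. Reads on the shared bases cannot be told apart. On this per-length scale the level of usp exceeded that of EcR in every library.

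Eip75B (E75) is a heme-binding receptor related to mammalian Rev-Erb and is one of the genes that ecdysone switches on first. It lies on 3L, 17950953 to 18064696, minus strand, and its exons overlap no other gene. Its levels ran from 2.59 to 28.7 RPKM, the widest range of the 10 in RPKM though not as a ratio. The libraries labelled EC had 28.7, 26.1 and 9.41 RPKM, progenitors 7.78, 4.42, 7.13, 3.94 and 6.15 RPKM, and EEs 3.11, 2.59 and 6.24 RPKM. All 3 libraries labelled EC were above all progenitor and EE libraries, although replicate 3, at 9.41 RPKM, came near the highest of them, at 7.78 RPKM.

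The mean of 21.4 ± 10.5 RPKM (SD, n = 3) in the libraries labelled EC was 3.63 times the progenitor mean of 5.88 ± 1.67 RPKM (SD, n = 5). The difference of log2(RPKM + 1) was 1.596 ± 0.365 (SE; limma, adjusted p = 0.0071). EEs against these libraries gave -2.10 ± 0.45 on that scale (SE; limma, adjusted p = 0.00489), and the mean RPKM differed 5.38-fold. The EE and progenitor libraries overlapped (-0.50 ± 0.28, SE; limma, adjusted p = 0.164). The rise in the libraries labelled EC kept its sign, between 1.32 and 2.08, but passed in 13 of 30 alternatives, and the call was lost on leaving out EC replicate 1 or 2 or progenitor replicate 1, 2, 4 or 5 (1.32, 1.39, 1.69, 1.52, 1.49 and 1.62). The difference from EEs passed in 15 of 24 and was lost on leaving out EC replicate 1 or 2 or EE replicate 1 or 2 (-1.82, -1.89, -1.99 and -1.90).

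In Sox100B-OE, Eip75B was at 12.1, 11.5 and 10.8 RPKM, above every progenitor library (0.89 ± 0.22, SE; limma, adjusted p = 0.00783). Sox100B-RNAi had 5.89, 4.56 and 10.4 RPKM, of which replicate 3 almost reached Sox100B-OE, and the difference between Sox100B-OE and Sox100B-RNAi was 0.72 ± 0.27 (SE; limma, adjusted p = 0.0812). The call against progenitors passed in 9 of 30 alternatives only, with values from 0.28 under quantile normalization to 1.07, and was lost on leaving out any Sox100B-OE replicate or progenitor replicate 2, 4 or 5 (0.86, 0.89 and 0.93, and 0.82, 0.78 and 0.92).

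Eip78C (E78), another Rev-Erb-type receptor of the ecdysone response, lies on the same chromosome arm (3L, 21226609 to 21266503, plus strand) and shares no exonic base. Progenitors had 1.65, 2.70, 0.493, 2.93 and 1.85 RPKM, and EEs a tight 1.76, 1.84 and 1.96 RPKM. Sox100B-OE was at 0.497, 0.666 and 0.645 RPKM. In Sox100B-RNAi, 2 libraries had 0.386 and 0.388 RPKM and replicate 2 had 3.68 RPKM, the highest value of all 17 libraries, so that the 3 replicates spanned the whole range of the gene. It was called in none of the 5 comparisons that tested it. The value of Sox100B-OE against progenitors, -0.79 ± 0.29 (SE; limma, adjusted p = 0.0479), passed on leaving out progenitor replicate 3, at -1.02, after quantile normalization, at -1.54, and with array weights, at -0.88.

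Hr3 (DHR3) is related to mammalian ROR receptors and in the prepupa turns on ftz-f1, while E75 can bind and repress it. It is encoded at 2R, 10203995 to 10237348, minus strand. Its transcript was at 2.38, 2.31 and 3.10 RPKM in Sox100B-OE and at 0.415, 0.394 and 0.475 RPKM in Sox100B-RNAi. The 5 progenitor libraries had 0.332, 0.291, 0.249, 0.538 and 0.582 RPKM, the EEs 0.225, 0.395 and 0.625 RPKM and the libraries labelled EC 0.360, 0.172 and 0.235 RPKM. Only the Sox100B-OE libraries exceeded 1 RPKM, and the other groups all overlapped their neighbours in the order of the means. These values rest on 420 to 607 implied reads per Sox100B-OE library and 98 to 146 per Sox100B-RNAi library.

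Hr3 was 6.07 times higher in Sox100B-OE than in Sox100B-RNAi by the mean RPKM, with all 9 pairs of libraries in that direction. The difference of log2(RPKM + 1) was 1.33 ± 0.17 (SE; limma, adjusted p = 0.000563). An exact 2-sided permutation test of this gene alone gave p = 0.1, the smallest that 3 against 3 libraries allow. Against progenitors the log2 fold change was 1.36 ± 0.13 (SE; limma, adjusted p = 1.64e-05). The difference from Sox100B-RNAi passed in 19 of 19 alternatives that could test the gene, and that from progenitors in 24 of 25, the exception being quantile normalization at 0.37. Hr3 passed the filter in both comparisons only through Sox100B-OE, so these tallies leave out the settings that dropped it. With a pseudocount of 0.1 the values of Hr3 were 2.35 and 2.48.

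Of the exonic length of Hr3, 82.7% is shared with other genes on the same strand, chiefly CG12912, all of whose 6466 exonic bases lie within exons of Hr3. CG12912 was listed at 0 in the 11 wild type libraries, at 3.06, 3.03 and 3.83 RPKM in Sox100B-OE and at 0.563, 0.48 and 0.7 RPKM in Sox100B-RNAi. Because the bases are shared, the rise of CG12912 between the Sox100B groups is not an observation separate from that of Hr3. Which of them the reads came from cannot be told apart here. CG12912 had reads in Sox100B-RNAi and was at 0 in progenitors, where Hr3 had 69 to 152 implied reads. Hr3 itself overlapped between these groups, but whether it was tallied over the same bases in both is not known. The comparisons of Hr3 in Sox100B libraries with wild type libraries all carry this limit.

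**Figure D3:**
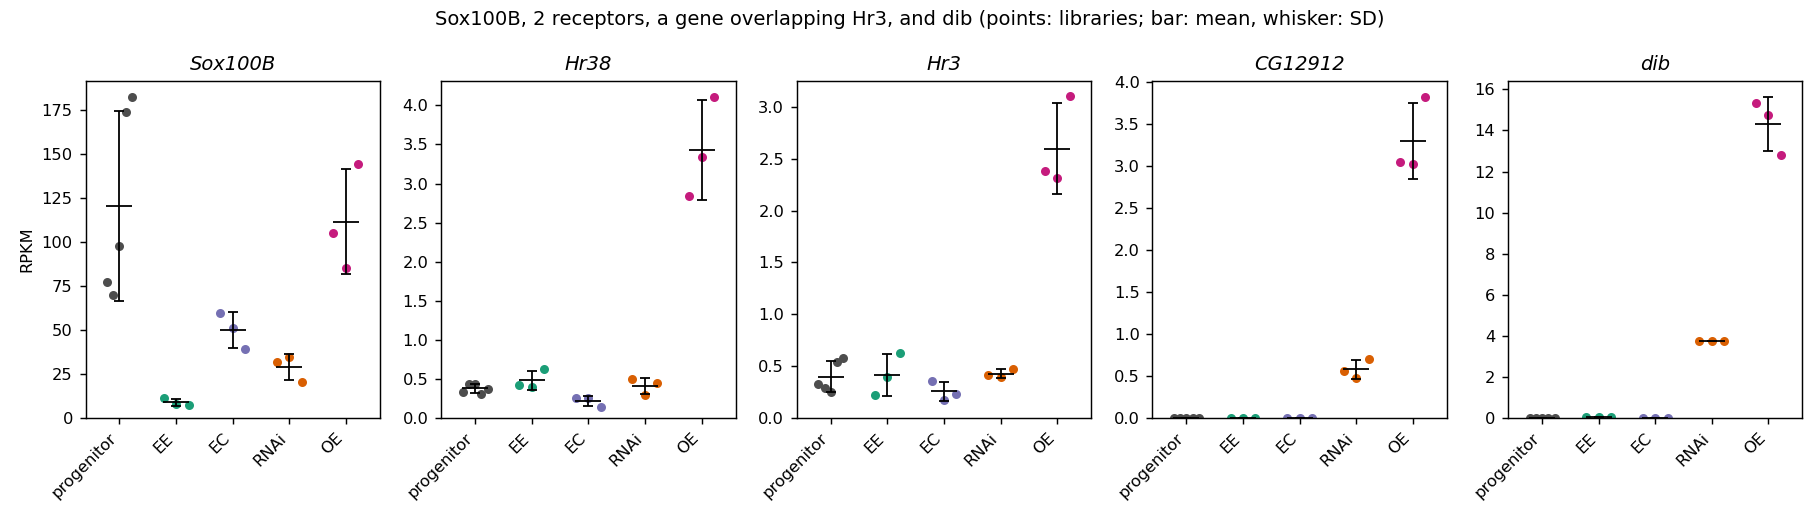
RPKM (y axis, from 0, own scale in each panel) of Sox100B, Hr38, Hr3, CG12912 (which overlaps Hr3) and dib in the 17 libraries by group; points are libraries, the bar is the mean and the whisker the SD. Hr38 and Hr3 are high in the 3 Sox100B-OE libraries alone, CG12912 is at 0 in the 11 wild type libraries, and dib is at 12.8 to 15.3 in Sox100B-OE and near 3.7 in Sox100B-RNAi.

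Hr39 and ftz-f1 encode receptors of the SF-1/LRH-1 type, and Ftz-f1 gives tissues the competence to answer the prepupal ecdysone pulse. Hr39 (2L, 21237250 to 21259675, plus strand) was at 3.91, 6.81, 3.01, 6.10 and 7.75 RPKM in progenitors, which on average had the highest level of the 5 groups. EEs had 2.39, 4.18 and 3.19 RPKM and the libraries labelled EC 3.04, 2.04 and 2.01 RPKM. The lowest progenitor library was within the range of both, and Hr39 was called nowhere, its largest difference being -0.91 ± 0.29 (SE; limma, adjusted p = 0.03) in the libraries labelled EC against progenitors. Sox100B-OE, at 5.72, 4.54 and 4.78 RPKM, was above Sox100B-RNAi, at 4.23, 3.33 and 3.65 RPKM, without overlap (0.34 ± 0.18, SE; limma, adjusted p = 0.195).

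ftz-f1 (3L, 18750607 to 18801309, minus strand) was at 3.59, 2.80, 3.67, 5.64 and 6.58 RPKM in progenitors and at 2.43, 3.65 and 3.31 RPKM in EEs. Both Sox100B groups were higher, with 10.3, 6.51 and 11.1 RPKM in Sox100B-RNAi and 13.04, 9.54 and 8.98 RPKM in Sox100B-OE. Sox100B-OE did not overlap the progenitors and Sox100B-RNAi overlapped them by 1 library. The log2 fold change against progenitors was 1.11 ± 0.25 (SE; limma, adjusted p = 0.00554) in Sox100B-OE, which was called, and 0.93 ± 0.27 (SE; limma, adjusted p = 0.0241) in Sox100B-RNAi, which was not. Sox100B-OE against Sox100B-RNAi gave 0.18 ± 0.25 (SE; limma, adjusted p = 0.631). The call passed in 13 of 29 alternatives and was lost on leaving out any Sox100B-OE replicate or progenitor replicate 1 or 3 (0.96, 1.17 and 1.20, and 1.06 and 1.06). It was also lost under median-of-ratios scaling (0.85), quantile normalization (0.46) and scaling to nuclear reads (0.93), with no filter and in 1 fit of all libraries (both 1.11), and against progenitor replicates 4 and 5 alone (0.68).

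The non-coding gene lncRNA:CR45939 shares 29.38% of the exonic length of ftz-f1 on the same strand. It was at 0.238 to 1.54 RPKM in the wild type libraries, and at 11.5, 8.62 and 6.67 RPKM in Sox100B-OE and 7.21, 5.82 and 16.8 RPKM in Sox100B-RNAi. Reads on the shared bases cannot be told apart, so the higher listings of ftz-f1 and of this neighbour in Sox100B libraries are not separate observations. In the libraries labelled EC ftz-f1 varied from 1.89 in replicate 3 to 6.45 and 10.4 RPKM. EEs against those libraries gave -0.61 ± 0.46 (SE; limma, adjusted p = 0.29), and -1.17, which passed, without EC replicate 3.

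Hr38 is the fly NR4A receptor, a partner of Usp that is also known as an activity-regulated gene of neurons (2L, 20683462 to 20714588, minus strand). Of the 10 it had the largest log2 fold change between Sox100B-OE and Sox100B-RNAi. Sox100B-OE had 2.84, 3.34 and 4.11 RPKM and Sox100B-RNAi 0.497, 0.294 and 0.446 RPKM, from 447 to 593 and 54 to 103 implied reads. Progenitors were between 0.313 and 0.435 RPKM, EEs at 0.427, 0.393 and 0.624 RPKM, and the libraries labelled EC at 0.252, 0.25 and 0.138 RPKM. The lowest Sox100B-OE library was thus above the highest of the other 14. Progenitor replicates 4 and 5, where Sox100B was at 174 and 183 RPKM, had 0.313 and 0.371 RPKM of Hr38. A relation of Hr38 to the level of Sox100B was not tested.

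The mean of Hr38 was 8.32 times higher in Sox100B-OE (3.43 ± 0.64 RPKM, SD, n = 3) than in Sox100B-RNAi (0.412 ± 0.106 RPKM, SD, n = 3) and 9.07 times higher than in progenitors (0.378 ± 0.055 RPKM, SD, n = 5). The log2 fold changes were 1.64 ± 0.18 (SE; limma, adjusted p = 0.000271) and 1.68 ± 0.12 (SE; limma, adjusted p = 1.76e-06), past the thresholds in 19 of 19 and 25 of 25 alternatives that could test the gene. Hr38 passed the filter in both comparisons only through Sox100B-OE, so these tallies leave out the settings that dropped it. With a pseudocount of 0.1 in place of 1, which compresses low values less, the log2 fold changes were 2.79 and 2.88. After quantile normalization they were 1.37 and 0.73. Hr38 shares 2.18% of its exonic length with CG2617 on the opposite strand, which was at 8.50 to 11.5 RPKM over the 6 Sox100B libraries.

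Like Hr38 and Hr3, the visceral muscle list (Mhc, Mlc2, Act57B, up and bt) summed higher in Sox100B-OE than in Sox100B-RNAi and progenitors. Its summed level was 3.44 to 4.83 RPKM in Sox100B-OE, 0.478 to 0.679 in Sox100B-RNAi and 0.829 to 1.78 in progenitors. Of its 5 genes only bt could be tested in Sox100B-OE against Sox100B-RNAi, and it was called higher, having passed the filter only through Sox100B-OE. Mlc2 was at 0.897 to 1.01 RPKM in Sox100B-OE and 0.128 to 0.179 in Sox100B-RNAi, without overlap. Likewise up was at 0.828 to 1.35 RPKM in Sox100B-OE and 0.199 to 0.235 in Sox100B-RNAi. Act57B overlapped, at 0.0253 to 0.217 and 0.0243 to 0.0431 RPKM. So did Mhc, the muscle myosin heavy chain, at 0.0381 to 0.0472 RPKM in Sox100B-OE and 0.0278 to 0.0492 in Sox100B-RNAi. In EEs the list summed to 7.25 to 10.2 RPKM, of which the troponin gene up made a mean of 6.97 RPKM, while bt was at a mean of 0.078 RPKM there and 1.82 RPKM in Sox100B-OE. In the libraries labelled EC the list summed to 2.04 to 10.9 RPKM. Hr3 and Hr38 did not exceed 0.625 RPKM in EEs or 0.36 RPKM in the libraries labelled EC. EE hormone markers also differed, at 8000 to 13500 summed RPKM in Sox100B-OE and 2080 to 4460 in Sox100B-RNAi, with 2 of 6 higher (Tk and NPF) and 2 lower (AstA and CCHa2). In EEs themselves these markers summed to 75000 to 86800 RPKM at the low Hr38 level given above. Of the progenitor markers Delta, the Notch ligand gene of stem cells, was lower, at a mean of 3.63 RPKM in Sox100B-OE and 41.1 RPKM in Sox100B-RNAi, 1 of 5, while the list summed to 132 to 144 and 81.4 to 142 RPKM. Of the enterocyte markers Myo31DF was higher, at 123 against 41.9 RPKM, 1 of 8, a call lost under median-of-ratios scaling, and that list summed to 380 to 626 and 98.9 to 758 RPKM. The 4 hemocyte markers summed to 0.325 to 0.537 RPKM in Sox100B-OE, with He at 0 in each library, and 2.92 to 6.27 in Sox100B-RNAi, and 1 of them, Sr-CI, was called lower in Sox100B-OE. The 4 fat body markers were at 0.134 to 0.841 RPKM in Sox100B-OE and 0.14 to 0.345 in Sox100B-RNAi. Between the Sox100B groups 10.5% of all features were called higher in Sox100B-OE and 5.56% lower. The part of these lists in the values of Hr3 and Hr38 was not tested beyond these levels.

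Hr78 is related to the mammalian TR2 and TR4 receptors (3L, 21494019 to 21497494, minus strand). The libraries labelled EC had 4.0, 1.93 and 3.87 RPKM, EEs 9.75, 10.5 and 11.8 RPKM, and progenitors 8.24, 6.83, 8.51, 11.2 and 13.3 RPKM. The libraries labelled EC lay below all 14 others. Their mean RPKM was 2.94 times lower than that of progenitors, and EEs exceeded them 3.27-fold. The differences of log2(RPKM + 1) were -1.32 ± 0.28 against progenitors and 1.49 ± 0.28 for EEs against them (SE; limma, adjusted p = 0.00538 and 0.00237). EEs and progenitors overlapped (0.17 ± 0.21, SE; limma, adjusted p = 0.534).

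Since the median of all features was also lower in the libraries labelled EC, the fall of Hr78 against progenitors was smaller once libraries were put on a common median: -0.92 under median-of-ratios scaling and -0.84 under quantile normalization, where it was no longer called. The call passed in 14 of 29 alternatives. It was also lost with no filter (-1.32), with the replicate block and against progenitor replicates 1 to 3 alone (both -1.09). Leaving out EC replicate 1 or 2 or progenitor replicate 1, 4 or 5 lost it too (-1.46, -1.07, -1.36, -1.26 and -1.21). The difference between EEs and the libraries labelled EC passed in 17 of 23 alternatives and was lost under quantile normalization (0.91) and on leaving out EE replicate 1, 2 or 3 (1.55, 1.499 and 1.426), for replicate 1 only where the filter on low values was reapplied. Sox100B-OE had 12.9, 12.7 and 14.4 RPKM and Sox100B-RNAi 9.78, 12.4 and 11.9 RPKM, which did not overlap but were not called apart (0.22 ± 0.19, SE; limma, adjusted p = 0.418).

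ERR, the estrogen-related receptor, is known in the fly larva for switching on glycolytic genes (3L, 8183361 to 8186671, minus strand). It was at 2.79, 3.08, 2.07, 4.11 and 5.20 RPKM in progenitors and 4.11, 3.10 and 5.05 RPKM in the libraries labelled EC, which overlapped. EEs had 6.03, 7.42 and 6.45 RPKM, above all libraries of both, but the log2 fold change of 0.82 ± 0.23 (SE) against progenitors missed the threshold (limma, adjusted p = 0.0157). It passed after median-of-ratios scaling (0.84), with array weights (0.77), against progenitor replicates 1 to 3 alone (1.07) and without progenitor replicate 5 (0.95). Sox100B-OE had 9.95, 7.48 and 10.8 RPKM and Sox100B-RNAi 4.48, 8.39 and 9.26 RPKM. Sox100B-OE was above the progenitors without overlap, 2.73 times by the mean, at 1.25 ± 0.24 (SE; limma, adjusted p = 0.00216), and not distinguishable from Sox100B-RNAi (0.35 ± 0.27, SE; limma, adjusted p = 0.377). The call against progenitors passed in 24 of 29 alternatives and was lost under quantile normalization (0.57) and without Sox100B-OE replicate 1 or 3 (1.21 and 1.16).

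Features on the opposite strand share 52.18% of the exonic length of ERR. One of them, asRNA:CR45869, was listed at 0 in the 11 wild type libraries and at 6.88 to 17.9 RPKM in the Sox100B libraries, where its lowest value and the lowest value of ERR were in the same library, replicate 1 of Sox100B-RNAi. Likewise asRNA:CR43933, which shares 18.31% of the exonic length of Hr78, was at 0.115 to 2.68 RPKM in the wild type and 4.22 to 8.39 RPKM in the Sox100B libraries. With strand not stated for the counting, reads of ERR and Hr78 and of these antisense genes cannot be told apart.

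Within the progenitors, 5 of the 10 receptors (EcR, Hr3, ftz-f1, Hr78 and ERR) were higher in both of replicates 4 and 5 than in any of replicates 1 to 3. Of the 7331 features at 1 RPKM or more in at least 3 progenitor libraries, among which Hr3 is not, 1741 (23.7%) did the same and 1244 the reverse. The targeted gene Sox100B showed the same split, at 174 and 183 against 69.7 to 98.0 RPKM. The labels give no reason for it.

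Of the other nuclear receptors of the fly, 11 were in the table, and only Hr96 and Hnf4 were high enough to test. Hr96, a receptor linked to xenobiotic and lipid handling, was at 73.7, 95.3 and 60.0 RPKM in EEs, 16.2 to 25.6 RPKM in progenitors and 8.99, 9.74 and 15.1 RPKM in the libraries labelled EC. It was higher in EEs than in either, by 1.80 ± 0.20 and 2.66 ± 0.29 on the log2 scale (SE; limma, adjusted p = 7.2e-05 and 0.000154), and in EEs it exceeded all 10 receptors above. Hnf4, a receptor of fat metabolism, went the other way, at 2.69, 2.44 and 3.86 RPKM in EEs against 6.35 to 7.88 RPKM in progenitors and 8.34 to 12.5 RPKM in the libraries labelled EC (-1.03 ± 0.17 and -1.50 ± 0.26, SE; limma, adjusted p = 0.00075 and 0.00152). Neither was called in the other 4 comparisons.

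Genes that make, import or clear ecdysone were mostly too low to test: of 8 in the table, 1 could be tested in each wild type comparison and 3 in each comparison with Sox100B libraries. The importer gene Oatp74D was at 4.19, 4.12 and 5.34 RPKM in EEs and 2.22, 1.10 and 1.79 RPKM in the libraries labelled EC (1.05 ± 0.23, SE; limma, adjusted p = 0.00568), a call that none of the 4 rescalings kept. In Sox100B-OE it was at 5.74, 6.96 and 7.50 RPKM, above the progenitors at 1.14 to 3.35 RPKM (1.35 ± 0.23, SE; limma, adjusted p = 0.00106), and the call held in 3 of 4 rescalings. The cytochrome P450 genes dib and spo, which act in ecdysone synthesis, were called higher in both Sox100B groups than in progenitors. They were tested there only because the Sox100B libraries carried them past the filter, so these calls follow from the filter and are not a finding about the list. For dib the Sox100B-OE libraries had 15.3, 14.8 and 12.8 RPKM, the Sox100B-RNAi libraries 3.73, 3.74 and 3.74 RPKM and the progenitors 0 to 0.02 RPKM, and Sox100B-OE exceeded Sox100B-RNAi by 1.69 ± 0.18 on the log2 scale (SE; limma, adjusted p = 0.00022). It shares 400 of its 1975 exonic bases with wit on the opposite strand. spo was at 3.70, 4.05 and 3.16 RPKM in Sox100B-OE and 3.73, 2.74 and 4.29 RPKM in Sox100B-RNAi, which overlapped, and at 0.06 to 0.23 RPKM in progenitors. nvd was not analysed here.

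The list of ecdysone-induced genes other than receptors had 9 members in the table, of which 6 or 7 were tested. In EEs against progenitors 3 of 7 were higher and 0 lower, where 20.1% of all features tested were higher. MsrA (Eip71CD, a methionine sulfoxide reductase) was at 24.3, 18.0 and 17.8 RPKM in EEs and 1.75 to 5.07 RPKM in progenitors (2.60 ± 0.27, SE; limma, adjusted p = 4.41e-05), and Eip63F-1, a calcium-binding protein, rose by 2.24 ± 0.19 (SE; limma, adjusted p = 1.12e-05). ImpE3 passed as well, at 0.78, but under 1 of 4 rescalings, and it was tested only because EEs, with a mean of 1.39 RPKM against 0.396 in progenitors, carried it past the filter. The libraries labelled EC had 0 of 6 called against progenitors in either direction by limma. Of all features 3.56% were higher and 16.5% lower in that comparison. In EEs against the libraries labelled EC 2 of 7 were higher, MsrA and Eip63F-1, where 26.5% of all features were. MsrA lost its call there under median-of-ratios scaling and quantile normalization, with 1.39 as its lowest value.

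In Sox100B-OE against Sox100B-RNAi, 0 of 6 ecdysone-induced genes were higher and 2 were lower, where 10.5% of all features were higher and 5.56% lower. ImpL2, a secreted protein that binds insulin-like peptides, was at 5.01, 8.12 and 9.78 RPKM in Sox100B-OE and 72.1, 244 and 88.7 RPKM in Sox100B-RNAi (-3.80 ± 0.44, SE; limma, adjusted p = 0.000384). Cth (Eip55E, cystathionine gamma-lyase) was at 31.6, 49.4 and 51.7 against 118, 118 and 109 RPKM (-1.39 ± 0.23, SE; limma, adjusted p = 0.00268). Both were also higher in Sox100B-RNAi than in progenitors, 2 of 6 on the list, where 23.0% of all features were higher. The call of Cth there, at 0.82, was kept by none of the 4 rescalings. Of the 2667 exonic bases of ImpL2, 1651 are shared with another gene on the same strand. In Sox100B-OE against progenitors 0 of 6 were called, where 28.9% of all features were higher and 4.83% lower. The transcription factor genes Eip74EF, at 8.61, 6.61 and 7.38 against 4.76, 5.07 and 4.58 RPKM, and Eip93F, at 23.4, 23.3 and 24.9 against 15.8, 13.5 and 18.1 RPKM, were higher in each Sox100B-OE than in each Sox100B-RNAi library and were not called. br was not analysed here.

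Among 8 genes for coregulators of nuclear receptors, 0 of 7 tested were higher and 3 were lower in EEs than in progenitors. Of all features 20.1% were higher and 14.5% lower. The largest fall of a coregulator was that of srl, the fly PGC-1 gene, at 1.41, 1.26 and 1.36 RPKM in EEs and 9.74 to 37.3 RPKM in progenitors. Its log2 fold change was -2.97 ± 0.36 (SE, with a limma adjusted p = 0.000109). It was followed by the EcR coactivator gene tai at -1.39 and by rig at -0.89. In the libraries labelled EC 0 of 7 were higher and 4 lower than in progenitors, namely srl, alien, rig and trr. Of all features 3.56% were higher and 16.5% lower there. For srl these libraries had 4.01, 1.93 and 2.67 RPKM (-2.28 ± 0.39, SE; limma, adjusted p = 0.002), and srl and alien stayed called under every rescaling that tested them, while rig and trr did not under median-of-ratios scaling and quantile normalization. Between EEs and these libraries alien was higher and tai lower in EEs, each 1 of 7, against 26.5% of all features higher and 6.22% lower. The call of alien was lost under median-of-ratios scaling and quantile normalization, with 1.01 as its lowest value.

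The coactivator gene rig was the coregulator that differed between the Sox100B groups, lower in Sox100B-OE at 5.40, 5.43 and 4.37 RPKM than in Sox100B-RNAi at 12.08, 12.03 and 16.4 RPKM (-1.25 ± 0.20, SE; limma, adjusted p = 0.00229), 1 of 8 tested. It was also lower in Sox100B-OE than in progenitors, at 10.4 to 14.4 RPKM (-1.09 ± 0.15, SE; limma, adjusted p = 0.00032). Of all features 5.56% were lower in Sox100B-OE than in Sox100B-RNAi and 4.83% lower than in progenitors. The gene bon was higher than in progenitors in both Sox100B groups, 1 of 8 in each. Of all features 28.9% were higher in Sox100B-OE and 23.0% in Sox100B-RNAi. The call of bon follows from the filter, which it passed only through the Sox100B libraries. It was at 4.68 to 7.64 RPKM in the Sox100B libraries and no more than 0.21 RPKM in any wild type library, and shares 1290 of its 5811 exonic bases with CG15923 on the opposite strand.

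Of the juvenile hormone genes, the receptor gene Met was higher in the libraries labelled EC, at 7.93, 8.25 and 5.44 RPKM, than in progenitors, at 1.79 to 3.52 RPKM (1.21 ± 0.24, SE; limma, adjusted p = 0.004), 1 of 2 tested. In that comparison 3.56% of all features were higher. The paralogue of Met, gce, was not called in any comparison. Kr-h1, the target gene of that receptor, was higher in both Sox100B groups than in progenitors, 1 of 3 in each, at 14.5, 10.1 and 14.4 RPKM in Sox100B-OE and 24.8, 16.0 and 18.0 RPKM in Sox100B-RNAi against 0.06 to 0.38 RPKM. Against progenitors 28.9% of all features were higher in Sox100B-OE and 23.0% in Sox100B-RNAi. Kr-h1 too passed the filter only through the Sox100B libraries, which fixed these calls. Of its 5306 exonic bases 4168 are shared with CG45075, and Sox100B-OE and Sox100B-RNAi were not called apart.

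The genes whose pattern over the 17 libraries was most like that of each called receptor were found by the root mean square difference of log2(RPKM + 1), each gene centred on its mean, among 9545 genes. This is a description over libraries that share groups, depth and processing. For Hr38 they were CG13458 (difference 0.118) and Nepl5 (0.136), both near 2 RPKM in Sox100B-OE, at means of 2.04 and 2.21, and at or below 0.068 in the other groups. For Hr3 they were bt, the gene of a giant muscle protein (0.124), and cd (0.136), with means of 1.82 and 1.37 RPKM in Sox100B-OE. Hr3 and Hr38 differed from each other by 0.173, less than either did from any of the other 8 receptors. Both reached 1 RPKM in the 3 Sox100B-OE libraries alone, and this closeness restates that. The genes named as nearest to them also passed the filter only through Sox100B-OE.

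For Eip75B the nearest were CG14441 (0.269) and raskol (0.285), both with their highest mean, 13.1 and 5.88 RPKM, in the libraries labelled EC. For Hr78 they were Cnot4 (0.2) and Hsf, the heat shock factor gene (0.208), at 4.63 and 6.25 RPKM in those libraries and above 11 RPKM in the other groups. ftz-f1 had Vps11 (0.349) and kay, the fly Fos gene (0.364), and ERR had Tbp, the TATA-binding protein gene (0.229), and f-cup (0.295), each with its 2 highest means in the Sox100B groups. Vps11, Cnot4, Tbp and f-cup share exonic bases with other genes, as ftz-f1, Hr78 and ERR do.

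**Figure D4:**
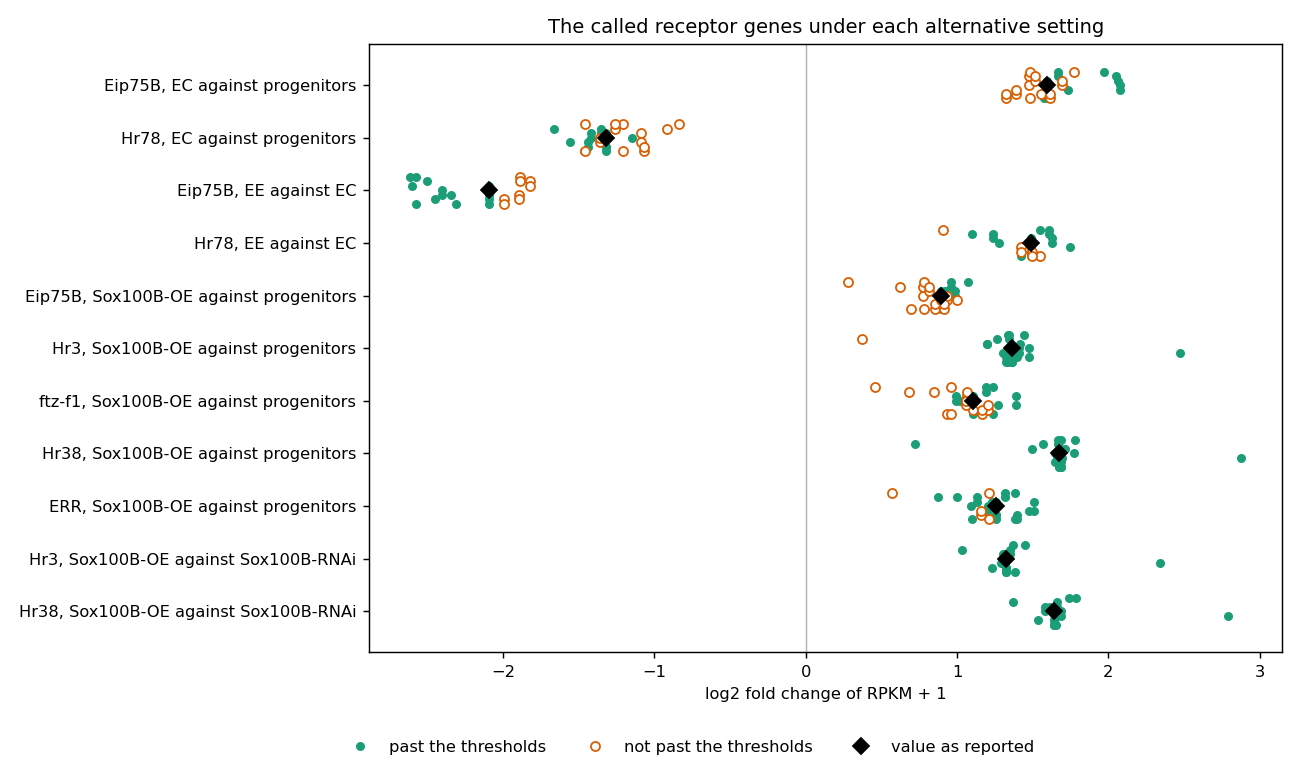
Log2 fold change of RPKM + 1 (x axis) of each called receptor and comparison (y axis) as reported (diamond) and under each alternative that could test it (circles; filled past the thresholds, open not). No circle lies across 0 from its diamond, and the circles of Hr38, and of Hr3 against Sox100B-RNAi, are all filled.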

How the data were processed

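The authors deposited 1 table of RPKM values for 17 libraries, and no other file was used. The submitters' processing notes name BDGP6, STAR and featureCounts 1.6.3. The read total behind each RPKM and the strand setting are not given in the sources used here. Of 17490 features, 1 without wild type values was dropped and 17215 matched the Ensembl annotation of BDGP6, from which positions and shared exonic bases were taken. Low RPKM times exonic length fell within 0.05 of whole multiples of 1 step for 98.12 to 98.46% of values, and the step gave the implied read totals. Replicates correlated at r = 0.95 to 0.99 over genes. The number of libraries and the depth limit precision, and amplified reads are not independent molecules.

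Groups came from the titles. Each comparison used limma 3.58.1 in R 4.3.3 (lmFit, eBayes with trend, 2-sided, Benjamini-Hochberg over all features tested) on log2(RPKM + 1), with only its own libraries and features at RPKM 1 or more in at least 3 of them. Thresholds were an adjusted p of 0.01 and an absolute log2 fold change of 0.5. The step was tested on simulated data. The text names all 10 receptors, in each other list up to 2 called genes per direction and comparison, and the 2 genes nearest in pattern to each called receptor. Eip74EF, Eip93F and gce, and further called genes, were named after their values were seen. Lists and members were chosen with earlier results of these data known.

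Alternatives were a filter at RPKM 5 or none, a pseudocount of 0.1, median-of-ratios, quantile and nuclear-read scaling, genes sharing no exonic base, a replicate block, array weights, 1 fit of the 17 libraries, other thresholds (0.05 and 1), progenitor replicates 1 to 3 or 4 and 5 alone, and leaving out each replicate. Leaving out a replicate while keeping the features of the full comparison was added after seeing the data. Same-numbered replicates were checked for pairing: their deviations correlated at -0.2 to 0.36, with all 3 pairs above 0.1 in no comparison, so numbers were not taken as pairs.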

Additional observations from a re-analysis of the deposited data

Results flagged for a closer look

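On the log2 scale, Hr38 was higher by 1.64 and Hr3 by 1.33 in Sox100B-OE than in Sox100B-RNAi, both past the thresholds in limma. Both entered the test only through Sox100B-OE, so these calls follow in part from the filter, and Hr3 shares 82.7% of its exonic length with other genes. No receptor had a progenitor library that stood apart from the other 4 by Dixon's test at 95%, which chance alone passes in about 1 of 20 groups.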

How the results depend on the processing

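The number of receptors called is given here where it moved by over 1.5 times or from 0, with the smaller moves last. In EEs against progenitors (0 as reported) it was 2 at an adjusted p below 0.05, 1 under median-of-ratios scaling, quantile normalization, nuclear-read scaling and genes sharing no exonic base each, 2 with array weights, and 1 and 3 with progenitor replicates 1 to 3 and 4 and 5 alone. In the libraries labelled EC against progenitors (2) it was 0 with no filter, among genes sharing no exonic base and with progenitor replicates 1 to 3, and 1 under median-of-ratios scaling, quantile normalization and with progenitor replicates 4 and 5. Between EEs and those libraries (2) it was 1 with no filter, 1 among genes sharing no exonic base and 4 with array weights. In Sox100B-RNAi against progenitors (0) it was 2 at 0.05 and 1 under quantile normalization, in 1 fit of all libraries and with progenitor replicates 1 to 3. In Sox100B-OE against progenitors (5) it was 3 with no filter, at RPKM 5, under median-of-ratios and nuclear-read scaling and in 1 fit, 2 under quantile normalization and 0 among genes sharing no exonic base. In Sox100B-OE against Sox100B-RNAi (2) it was 0 at RPKM 5 and among genes sharing no exonic base, settings that did not test Hr3 and Hr38. Leaving out 1 replicate gave 0 to 1, 0 to 2, 0 to 4, 0 to 0, 0 to 5 and 0 to 2 in these comparisons in turn. The lowest values of the last 2 came from leaving out a Sox100B-OE library with the filter reapplied, which removed Hr3 and Hr38 from testing. With the features kept, 2 to 3 and 2 were called.

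Smaller moves were to 3 in the libraries labelled EC against progenitors (at 0.05, and in 1 fit) and in EEs against them (at 0.05, under median-of-ratios scaling and in 1 fit). In Sox100B-OE against progenitors they were to 6 (at 0.05, with array weights and with progenitor replicates 1 to 3) and 4 (at a fold change above 1, pseudocount 0.1 and progenitor replicates 4 and 5).

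The replicate block, fitted although the numbers were not shown to pair the libraries, gave 1, 0, 2, 1, 4 and 2 called receptors in the same order.

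Of 1360 single values under alternatives, 1229 kept their side of the thresholds, 91 fell below, 40 passed newly and 0 reversed. In 60 the sign differed from the reported one, and none of these was called in either setting. Outside Sox100B-OE, Hr3 and Hr38 had 47 to 246 and 50 to 181 implied reads per library and fell under the filter, so differences among those groups were not tested.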
